A study of Rattus norvegicus with 6 samples.

Results

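The miRNAs described are 5 mature strands known to promote osteoblast differentiation of marrow stromal cells, namely rno-miR-26a-5p, rno-miR-26b-5p, rno-miR-22-3p, rno-miR-29a-3p and rno-miR-218a-5p (the prefix for rat is left out below). They were chosen by name, and all 5 were found among the 311 distinct mature sequences of the deposited table. Extracellular vesicles (exosomes), the particles that cells release, were the source of the sequenced small RNA and came from rat bone marrow mesenchymal stromal cells (BMSCs). The cells were flushed from tibias and femurs of male SD rats (the strain as labelled) aged 4 weeks and grown in medium with 10% fetal bovine serum and penicillin-streptomycin. The hypoxia group (labelled hypoxia preconditioning) was kept at 1% oxygen and the normoxia control at 21%, both at 5% carbon dioxide, with 3 libraries each and no genetic change named for either. No label ties a library to an animal or a culture, and the p-values therefore reflect only how far these libraries vary, which may be technical variation.

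A miRNA is cut from a hairpin precursor, and 1 arm of the hairpin usually becomes the guide strand that pairs with messenger RNAs through its seed, bases 2 to 8. In bone, several miRNAs act by lowering inhibitors of osteoblast formation. miR-218 and miR-29a are known to target secreted inhibitors of Wnt signalling, a pathway that drives osteoblast formation, and miR-29 strands also target collagen mRNAs. miR-26a is known to target the kinase GSK3B and the signal transducer SMAD1, and miR-22 a histone deacetylase. Not all of these targets are inhibitors of osteoblast formation. Vesicles can carry miRNAs from the cells that release them to other cells.

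The sequences show what the 5 strands share and how they differ. They are written 5′ to 3′ as in the deposited table, and each is identical to its RefSeq entry (build GRCr8). Capitals mark the seed.
miR-26a-5p: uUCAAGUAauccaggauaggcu
miR-26b-5p: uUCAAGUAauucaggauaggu
miR-22-3p: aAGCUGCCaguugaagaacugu
miR-29a-3p: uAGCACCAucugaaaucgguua
miR-218a-5p: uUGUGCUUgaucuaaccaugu
Only the miR-26 strands share a seed, so the 5 strands hold 4 seeds. Aligned from the 5′ end without gaps, miR-26b-5p differs from miR-26a-5p by C11U and C21U (miR-26a-5p first, positions counted from 1 at the 5′ end), and it is 21 bases long against 22. No other listed sequence had any of the 4 seeds. The other strands in RefSeq with the miR-29a-3p seed, miR-29b-3p and miR-29c-3p, were listed in none of the 6 libraries.

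The files were made with rn6, while the positions given here come from RefSeq on GRCr8. Mir26a lies at chr8:127633048-127633137 (plus strand), within the span of Ctdspl, and Mir26b at chr9:83425709-83425793 (plus strand), within Ctdsp1. Both host genes encode small phosphatases. Mir22 lies at chr10:60805331-60805425 (plus strand), in the span of no other RefSeq gene but within 1000 bases of Mir6326. Mir29a lies at chr4:60617955-60618042 (minus strand), overlapped by Mir3556a and within 1000 bases of Mir29b1 and Mir3587. miR-218a-5p is cut from 2 hairpins. Mir218-1 lies at chr14:66922348-66922457 (minus strand), in the span of Slit2 and overlapped by Mir3565. Mir218-2 lies at chr10:20572523-20572632 (plus strand), in the span of Slit3. Slit2 and Slit3 encode secreted guidance proteins. The hairpins are shown because the mature strand, in capitals, is the same in both.
Mir218-1: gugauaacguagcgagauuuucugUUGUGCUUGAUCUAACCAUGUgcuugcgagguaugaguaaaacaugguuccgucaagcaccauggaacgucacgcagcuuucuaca
Mir218-2: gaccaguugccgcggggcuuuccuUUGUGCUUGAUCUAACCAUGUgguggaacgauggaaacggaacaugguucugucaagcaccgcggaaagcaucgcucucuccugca
The table repeats the same miR-218a-5p counts on both rows, so they cannot be divided between Slit2 and Slit3.

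Total counts per library ran from 106954 to 248542, over 85 to 183 listed sequences. Hypoxia replicate 1 stood apart. Only 7.06% of its 85 listed sequences had fewer than 20 counts, against 20.2 to 51.9% in the other libraries. Of the 81 sequences listed in all 5 other libraries, 25 were blank in it, while each other library lacked 0 to 5 of the sequences that all the rest listed. The miRNA miR-320-3p took 15.4% of its counts and at most 2.92% of any other library. The mesenchymal stromal markers, 8 of 8 of which were listed, held 31.3 to 40.1% of counts under hypoxia and 28.5 to 43.5% under normoxia. That list includes miR-22-3p, miR-21-5p and miR-145-5p. Most of its share in every library was miR-21-5p alone. This strand had 24246 of 118683 counts in hypoxia replicate 1 and 78530 of 227149 in normoxia replicate 3. By contrast, miR-145-5p had no count in hypoxia replicate 1 or normoxia replicate 1. The share therefore says little about the other members, and whether it reflects the source cells was not tested. Of other cell types, 3 of 4 erythroid markers were listed, at 0% of counts in hypoxia replicate 1 and 0.0253 to 0.103% elsewhere. The liver miRNA miR-122-5p held 0.464 to 0.905% of every library. For myeloid and lymphoid cells 1 of 4 markers was listed, at 0.00161% at most, with miR-223-3p, miR-142-3p and miR-142-5p unlisted. Endothelial markers (1 of 2 listed, miR-126a-3p) held 0.0267 to 0.0963%, and epithelial markers (1 of 5) at most 0.0112%.

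The 5 strands together held 4.11 to 6.14% of counts under hypoxia and 5.79 to 6.50% under normoxia. Most of this was miR-26a-5p, which took 90.1 to 93.3% of the 5-strand counts in every library except hypoxia replicate 1, where it took 74.6%. By mean level over the 6 libraries the order was miR-26a-5p, miR-22-3p, miR-218a-5p, miR-29a-3p and miR-26b-5p, at 52064, 3117, 1016, 951 and 416 CPM (counts scaled to a common library size with TMM factors). Their ranks among the 107 tested sequences were 6, 26, 38, 40 and 63. The strands are 21 or 22 bases long, so no division by length was made. Ligation during library making can favour some sequences over others, and its part in this order was not tested. Vesicle pools are bulk samples, in which fewer vesicles with a strand and less of it per vesicle cannot be told apart.

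**Figure D1:**
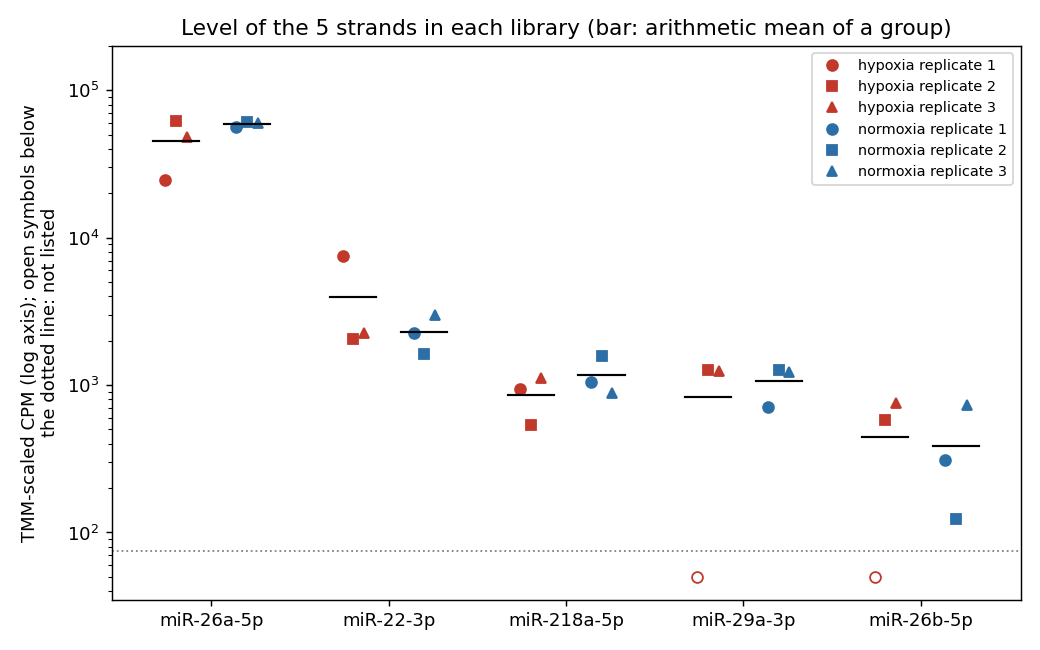
Level of each strand (TMM-scaled CPM, log axis) in the 3 hypoxia and 3 normoxia libraries, with the arithmetic mean of each group as a bar. miR-26a-5p lies far above the rest, and hypoxia replicate 1 is lowest for miR-26a-5p, highest for miR-22-3p and lists neither miR-29a-3p nor miR-26b-5p (open symbols).

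rno-miR-26a-5p, the abundant miR-26 strand, had 3641, 8370 and 11946 counts in hypoxia replicates 1 to 3 and 5744, 12427 and 12218 in normoxia replicates 1 to 3. Its levels were 24779.8, 62242 and 48442.5 CPM under hypoxia and 55962, 61198 and 59763 CPM under normoxia. The normoxia libraries lay close together, and the hypoxia libraries spread on both sides of them, with replicate 1 lowest. The coefficient of variation of the level was 4.59% under normoxia and 42.0% under hypoxia, where counting error alone would give 0.994% and 1.12%. The mean was 45155 ± 18946 CPM in the hypoxia group against 58974 ± 2705 CPM in the control (SD, n = 3 each). The log2 fold change was -0.39 for hypoxia over normoxia (SE 0.35, 95% interval -1.13 to 0.36), with an adjusted p of 0.998 in edgeR's quasi-likelihood test. As a ratio the interval runs from 0.456 to 1.28. Without hypoxia replicate 1 the direction turned, to 0.14 (SE 0.27). The share of the library total did not turn: its difference, hypoxia minus normoxia, was -1.06 percentage points with all libraries and -0.328 without that one.

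miR-26b-5p, which has the same seed, was scarce. It had 78 and 185 counts in hypoxia replicates 2 and 3 and 32, 25 and 149 in normoxia replicates 1 to 3, and it was not listed in hypoxia replicate 1. The levels were 580.0 and 750.2 CPM in the hypoxia libraries that list it and 312, 123 and 729 CPM under normoxia. The normoxia libraries differed beyond counting error. The share was 0.0122% in normoxia replicate 2 (95% exact binomial interval 0.00787 to 0.0180%), 0.0299% in replicate 1 (0.0205 to 0.0422%) and 0.0656% in replicate 3 (0.0555 to 0.0770%). These intervals hold for counting error alone, because reads that carry no molecular identifier can be copies of 1 molecule. Counts of miR-26a-5p were 64.6 to 497 times those of miR-26b-5p in the 5 libraries that list both. The ratio was 107 and 64.6 in hypoxia replicates 2 and 3, and 179.5, 497 and 82.0 in normoxia replicates 1 to 3, so the groups overlapped. With the blank library as 0, the mean level of miR-26b-5p was 443 ± 393 CPM in the hypoxia group and 388 ± 309.9 CPM in the control (SD, n = 3 each). The log2 fold change of miR-26b-5p was 0.19 (SE 1.72, 95% interval -3.52 to 3.91, adjusted p 0.998 in edgeR), and 0.97 (SE 0.82) without hypoxia replicate 1. Its direction was negative without hypoxia replicate 3 (-0.25) or normoxia replicate 2 (-0.20). The strands differ by few bases, so reads may have been divided unevenly between them.

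rno-miR-22-3p, a strand known to favour osteoblast over fat cell formation, was the second most abundant. It had 1104, 278 and 554 counts in hypoxia replicates 1 to 3 and 233, 328 and 611 in normoxia replicates 1 to 3. Its levels were 7514, 2067 and 2247 CPM under hypoxia and 2270.05, 1615 and 2989 CPM under normoxia. Hypoxia replicate 1 was the highest library, and the other hypoxia libraries lay within the normoxia range. In that library miR-22-3p took 0.930% of counts (95% exact binomial interval 0.876 to 0.986%), against 0.160 to 0.269% in the other 5. The mean was 3942 ± 3094 CPM in the hypoxia group against 2291 ± 687 CPM in the control (SD, n = 3 each). The log2 fold change was 0.78 (SE 0.55, 95% interval -0.41 to 1.98, adjusted p 0.998 in edgeR), or a ratio between 0.752 and 3.93. Without hypoxia replicate 1 it was 0.13 (SE 0.44), and without hypoxia replicate 2 it was 1.19, with an unadjusted p of 0.0475 in edgeR and no call after adjustment. In hypoxia replicate 1 the striated muscle markers (3 of 5 listed) held 1.89% of counts, against 0.147 to 0.487% elsewhere, with miR-133a-3p and miR-133b-3p unlisted. The neural markers (2 of 3 listed) held 0.425% there and 0.0845 to 0.285% elsewhere, with miR-124-3p unlisted. The part of either in the miR-22-3p level was not tested.

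The miR-22 hairpin was the only one of the 6 whose opposite arm was listed. It is shown with both arms in capitals, miR-22-5p first and miR-22-3p second.
Mir22: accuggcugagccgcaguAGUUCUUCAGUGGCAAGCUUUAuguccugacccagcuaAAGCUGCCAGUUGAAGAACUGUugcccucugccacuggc
miR-22-5p had 13 counts in hypoxia replicate 3 and was not listed elsewhere. In that library miR-22-3p made up 97.7% of the 567 counts of the hairpin (95% exact binomial interval 96.1 to 98.8%). The opposite arms miR-26a-3p, miR-26b-3p, miR-29a-5p, miR-218a-1-3p and miR-218a-2-3p had no listed count. The smallest listed count was 7 in normoxia replicate 2 and 2 in each of the other libraries. The rule by which a count is listed is not stated, so no upper limit is given for these arms.

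rno-miR-29a-3p, a repressor of Wnt inhibitors and collagen mRNAs, had 169 and 306 counts in hypoxia replicates 2 and 3 and 73, 258 and 251 in normoxia replicates 1 to 3. The levels were 1257 and 1241 CPM in those hypoxia libraries and 711, 1271 and 1228 CPM under normoxia. Outside hypoxia replicate 1, 4 of the 5 libraries lay between 1228 and 1271 CPM, and only normoxia replicate 1 was lower. Hypoxia replicate 1 did not list the strand. At the shares of the other libraries, 81.0 to 149 counts would have stood there for miR-29a-3p and 14.4 to 88.3 for miR-26b-5p. Of the 25 sequences blank only in hypoxia replicate 1, miR-29a-3p was the most abundant in the other libraries. With the blank as 0, the mean was 833 ± 721 CPM in the hypoxia group and 1069.8 ± 311 CPM in the control (SD, n = 3 each). On the log2 scale the fold change of miR-29a-3p was -0.36 (SE 1.34, 95% interval -3.33 to 2.61, adjusted p 0.998 in edgeR) with all libraries and 0.45 (SE 0.51) without hypoxia replicate 1, so its direction rests on that library. The value with all libraries also depended on the method, at -2.04 in limma-voom and -2.40 in limma on the normalized values with a pseudocount of 1.

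rno-miR-218a-5p, also known to target Wnt inhibitors, had 138, 72 and 274 counts in hypoxia replicates 1 to 3 and 108, 319 and 181 in normoxia replicates 1 to 3. Its levels were 939, 535 and 1111 CPM under hypoxia and 1052, 1571 and 885 CPM under normoxia. The groups overlapped, with the lowest library under hypoxia and the highest under normoxia. Hypoxia replicate 1 lay inside the range of the other libraries for this strand, unlike for the other 4. The mean was 862 ± 296 CPM in the hypoxia group against 1169.5 ± 358 CPM in the control (SD, n = 3 each). The log2 fold change was -0.44 (SE 0.68, 95% interval -1.91 to 1.03, adjusted p 0.998 in edgeR) and -0.30 (SE 0.56) without hypoxia replicate 1. It was -0.061 without hypoxia replicate 2 and -0.11 without normoxia replicate 2.

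None of the 5 strands passed edgeR's quasi-likelihood test at an adjusted p under 0.05, where 0.0% of the 107 tested sequences did. None had an unadjusted p under 0.05, against 0.935% (1 sequence) of all tested, and DESeq2 and limma-voom also called 0 sequences. At an unadjusted p under 0.05, DESeq2 had 1 sequence and limma-voom 4. The smallest unadjusted p among them in edgeR's fit across all sequences was 0.180, for miR-22-3p. For none of the 5 did the hypoxia and normoxia libraries separate, against 7.48% of all tested sequences. Those were 0 higher and 8 lower under hypoxia with TMM factors, 1 and 6 with DESeq2's scaling (RLE), 2 and 5 with upper-quartile factors and 3 and 5 with library totals, and the 5 strands overlapped in each. Fitted values lay above 0 for 2 strands and below 0 for 3, with a median of -0.36, beside 44 above and 63 below over all tested sequences, with a median of -0.14. Without hypoxia replicate 1, 4 of the 5 strands lay above 0 and 1 below, with a median of 0.14, and the median of all tested sequences was 0.15. For shares of the library total, the two-sided exact permutation test was used, whose smallest possible p in this design is 0.1. The exact p was 0.3 for miR-26a-5p, 0.9 for miR-26b-5p, 0.6 for miR-22-3p, 0.8 for miR-29a-3p and 0.6 for miR-218a-5p. These intervals are wide, so alike levels were not shown either.

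**Figure D2:**
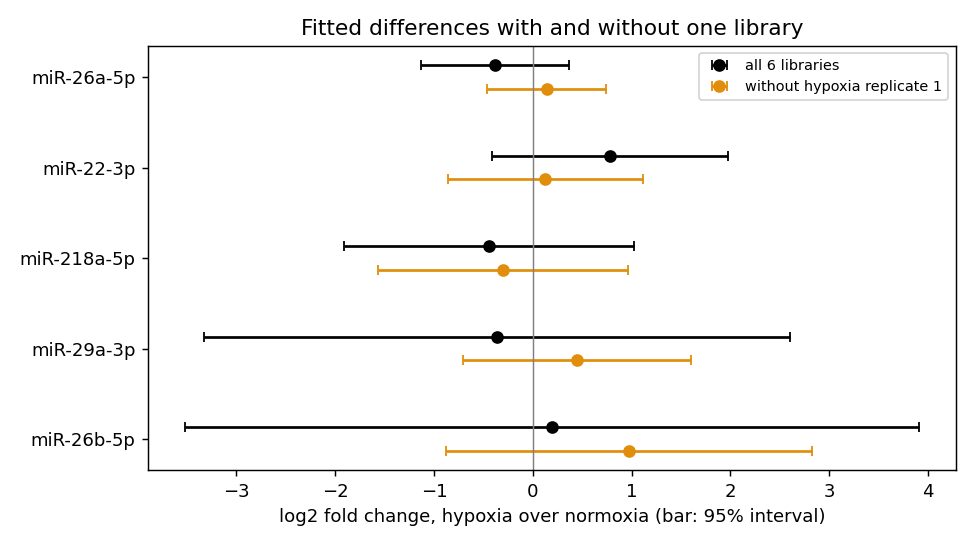
Log2 fold change, hypoxia over normoxia, of each strand with its 95% interval, from edgeR with all 6 libraries and without hypoxia replicate 1. All intervals cross 0, and the values of miR-26a-5p and miR-29a-3p change sign between the fits.

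The precision differed widely among the strands. The SE of the log2 fold change was 0.35 for miR-26a-5p, 0.55 for miR-22-3p and 0.68 for miR-218a-5p. It was 1.34 for miR-29a-3p and 1.72 for miR-26b-5p, the strands with a blank library. The median was 1.44 over all 107 tested sequences and 0.42 among the 39 whose mean exceeded 1000 CPM. miR-29a-3p and miR-218a-5p had nearly equal mean levels, 951 and 1016 CPM, but a different SE. Without hypoxia replicate 1 the SE of miR-29a-3p was 0.51.

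**Figure D3:**
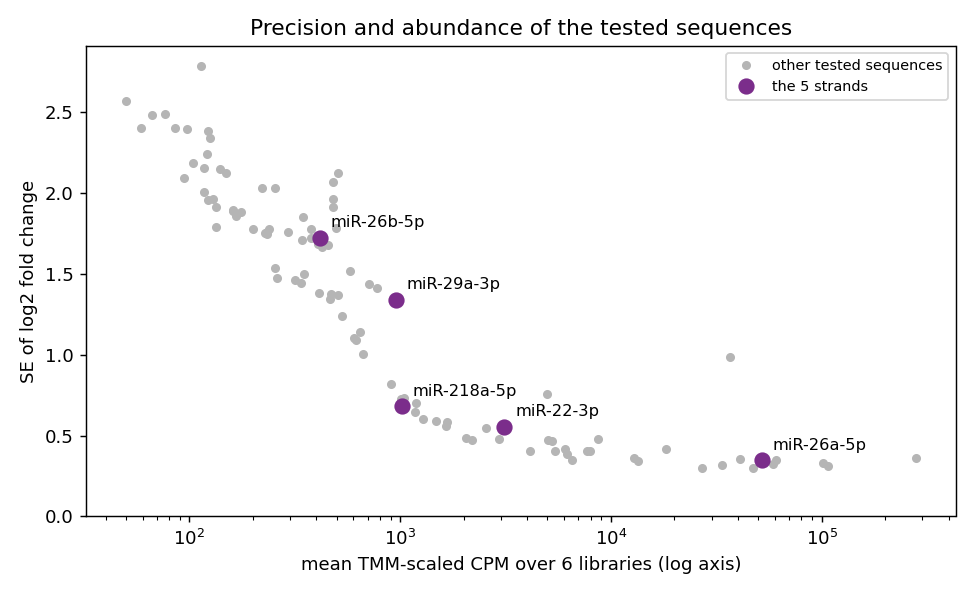
SE of the log2 fold change against mean level (CPM, log axis) for the 107 tested sequences, with the 5 strands marked. The SE falls with abundance, and miR-29a-3p, at 951 CPM, lies above miR-218a-5p, at 1016 CPM.

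Ratios of strands within a library do not depend on how libraries are scaled. miR-26a-5p had 21.6 to 30.1 times the counts of miR-22-3p in hypoxia replicates 2 and 3 and 19.997 to 37.9 times under normoxia, but 3.30 times in hypoxia replicate 1. Against miR-218a-5p the ratio of miR-26a-5p was 26.4, 116 and 43.6 in hypoxia replicates 1 to 3 and 53.2, 39.0 and 67.5 in normoxia replicates 1 to 3. Against miR-29a-3p it was 49.5 and 39.0 in hypoxia replicates 2 and 3 and 78.7, 48.2 and 48.7 in normoxia replicates 1 to 3. The groups overlapped in each of these ratios.

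The 3 strands counted in all 6 libraries gave 3 pairs for a two-sided exact permutation test of the log2 ratio. The difference, hypoxia minus normoxia, was -1.04 for miR-26a-5p over miR-22-3p (exact p = 0.5, adjusted over the pairs 0.75). It was -0.022 for miR-26a-5p over miR-218a-5p (exact p = 1, adjusted 1) and 1.02 for miR-22-3p over miR-218a-5p (exact p = 0.3, adjusted 0.75). Without hypoxia replicate 1 these differences were -0.058, 0.46 and 0.51. The first of them therefore rests on that library.

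**Figure D4:**
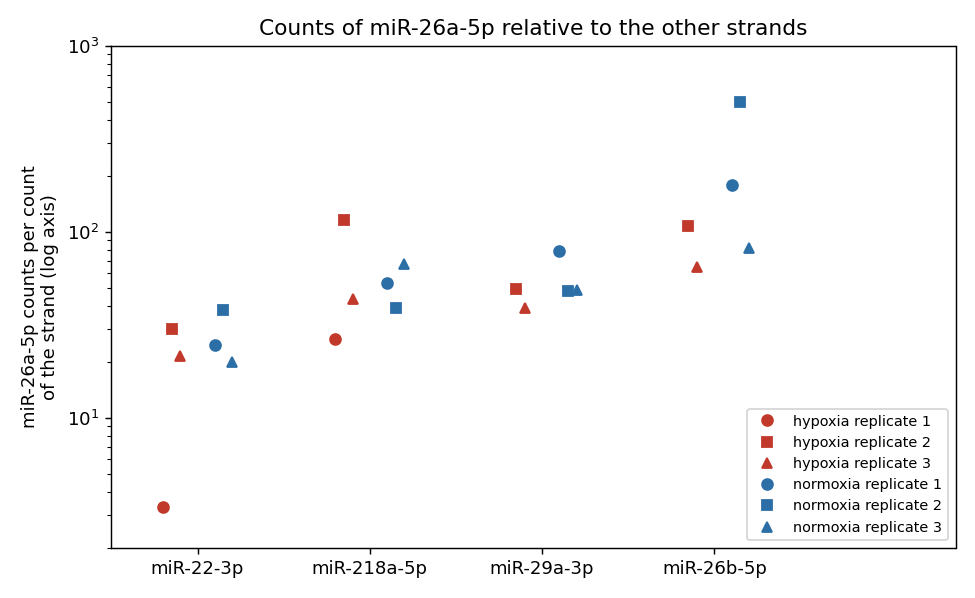
Counts of miR-26a-5p per count of each other strand (log axis) in each library that lists both. The miR-22-3p ratio of hypoxia replicate 1, 3.30, lies apart from the 19.997 to 37.9 of the other libraries, and the miR-26b-5p ratio ranges from 64.6 to 497.

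Library by library, the order of the strands was firm at its top only. miR-26a-5p exceeded miR-22-3p in 6 of 6 libraries, and miR-22-3p exceeded both miR-218a-5p and miR-29a-3p in 6 of 6, with blanks as 0. In normoxia replicate 2, however, miR-22-3p and miR-218a-5p were within counting error, at 328 and 319 counts. miR-29a-3p was above miR-218a-5p in 3 of 6 libraries, with the blank as 0. Where both were listed, its counts ran from 0.676 times those of miR-218a-5p (normoxia replicate 1) to 2.35 times (hypoxia replicate 2). The order of these 2 strands was not tested. miR-218a-5p was above miR-26b-5p in 5 of 6, with the blank as 0, and below it in hypoxia replicate 2 (72 against 78 counts). By mean level miR-26b-5p stayed in place 5 with each library left out in turn. miR-29a-3p was above miR-26b-5p in 5 of 5 libraries that list them.

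For the 3 strands counted in every library, the annotated miRNAs with the steadiest count ratio to each were sought among 53 others counted in all 6 libraries. The measure of likeness was the SD over the 6 libraries of the log2 ratio of counts, with 0.5 added. The nearest to miR-218a-5p was miR-99b-5p, at an SD of 0.12 beside a median of 0.84 over the 53. The counts of miR-99b-5p were 13.4, 14.5 and 12.02 times those of miR-218a-5p in hypoxia replicates 1 to 3 and 12.03, 11.8 and 13.6 times in normoxia replicates 1 to 3. Counting error alone would give an SD of 0.13, but miR-99b-5p was picked as the smallest SD of 53, so this does not show a constant ratio. The next were miR-126a-3p (SD 0.17) and miR-24-3p (SD 0.31).

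The nearest to miR-26a-5p was let-7i-5p, at an SD of 0.15 beside a median of 0.68 over the 53. Its counts were 2.12, 1.70 and 1.92 times those of miR-26a-5p in hypoxia replicates 1 to 3 and 1.76, 2.19 and 2.09 times in normoxia replicates 1 to 3. This spread is above the 0.021 that counting error would give. Hypoxia replicate 1, where both were low, lay within the range of the other ratios. The next were miR-224-5p (SD 0.29) and miR-27a-3p (SD 0.33). let-7 strands differ by few bases, so reads of other let-7 strands may be counted with let-7i-5p, which was not tested.

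The likest pattern to miR-22-3p was that of miR-143-3p, a mesenchymal and smooth muscle miRNA, but at an SD of 0.46 beside a median of 1.00 over the 53. Its counts were 1.18 times those of miR-22-3p in hypoxia replicate 1 and 2.05 to 2.92 times in the other libraries. The next were miR-24-2-5p and miR-140-3p (SD 0.57 each). The other strands were less alike, with SDs of 0.73 for miR-26a-5p against miR-218a-5p, 1.00 for miR-22-3p against miR-218a-5p and 1.26 for miR-26a-5p against miR-22-3p. Each nearest miRNA was picked as the smallest SD of 53, so none of these pairs shows a constant ratio. The nearest sequences to miR-218a-5p and miR-26a-5p are shown because neither has the seed (in capitals) of the strand it was picked for.
miR-99b-5p: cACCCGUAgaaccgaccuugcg
let-7i-5p: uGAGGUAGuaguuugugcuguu

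**Figure D5:**
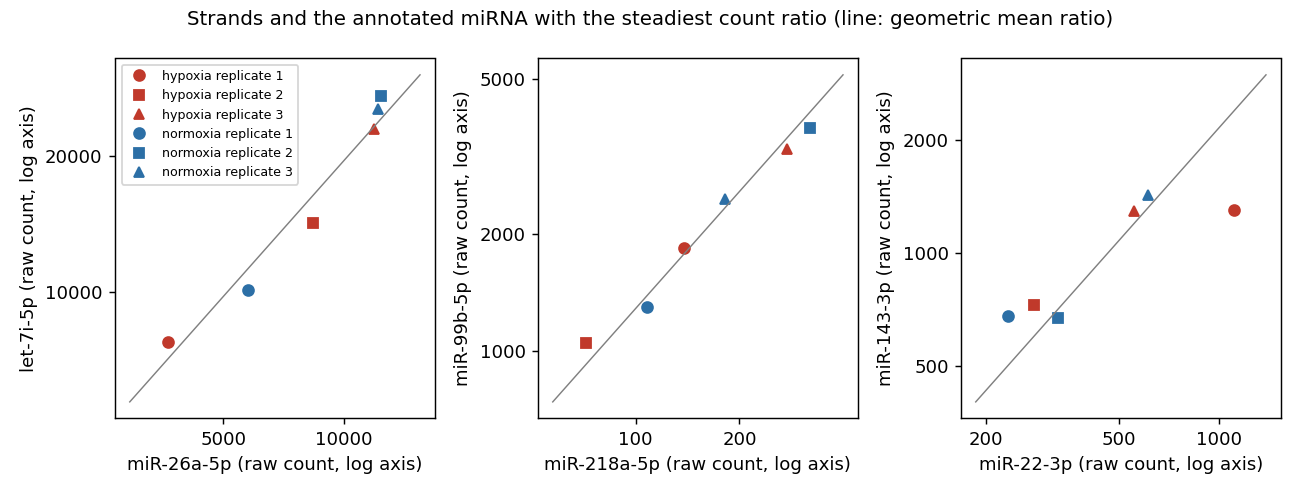
Raw counts (log axes) of 3 strands against the miRNA with the steadiest ratio to each, in 6 libraries, with a line at the geometric mean ratio. Both axes carry library depth, so the spread about the line is what compares the panels: SDs of 0.15, 0.12 and 0.46 on the log2 scale, with hypoxia replicate 1 off the line in the third.

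Other miRNAs with a known part in bone were described beside the 5 strands. Of 15 further miRNAs known to promote osteoblast formation, 10 were listed and 5 tested, 1 with a fitted value above 0 and 4 below, and 0 passed edgeR's test. miR-21-5p, the most abundant miRNA of the vesicles, had a mean of 280102 CPM and a log2 fold change of -0.16 (SE 0.36), and let-7c-5p 107003 CPM and -0.14 (SE 0.31). miR-27a-3p had 465 CPM and -0.46 (SE 1.34), and miR-378a-3p 409 CPM and 0.15 (SE 1.69). Together with the 5 strands the tested members came to 10, of which 3 lay above 0 and 7 below. Their median was -0.24, and 0.28 without hypoxia replicate 1. The median of all tested sequences was -0.14, with 44 above 0 and 63 below, and it was 0.15 without that library.

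Of 29 miRNAs known to inhibit osteoblast formation, 21 were listed and 17 tested, 8 with a value above 0 and 9 below, with a median of -0.044, and 0 passed. miR-100-5p led it with a mean of 33806 CPM and a log2 fold change of -0.24 (SE 0.32). miR-24-3p had 7992 CPM and -0.59 (SE 0.40), and miR-143-3p 6066 CPM and 0.21 (SE 0.42). miR-125b-5p had 4115 CPM and -0.19 (SE 0.40). miR-16-5p, unlisted in hypoxia replicate 1, had 229 CPM and -1.82 (SE 1.75). No member of either list had an unadjusted p under 0.05. The inhibiting list held 5.22 to 6.70% of counts under hypoxia and 5.44 to 7.10% under normoxia. The promoting list without the 5 strands, which includes miR-21-5p and let-7c-5p, held 30.3 to 43.9% and 31.9 to 42.8%.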

How the data were processed

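Small RNA libraries of 6 vesicle samples (3 hypoxia, 3 normoxia) were analysed. Novoalign 3.02.12, cutadapt 1.9.3 and the build rn6 are named in the submitters' processing notes without their roles. For the counting program, annotation release and filters the entry is: not given in the sources used here. Raw tag counts per mature miRNA and precursor were deposited, per the file headers, and the authors also deposited normalized tag counts, treated here as a score because the method is not stated and the values are whole numbers. Blank cells were taken as 0.

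The 353 rows were merged to 311 distinct mature sequences. edgeR 4.0.16 in R 4.3.3 was used with filterByExpr (minimum count 10, minimum total count 15; 107 sequences kept), TMM factors, estimateDisp, robust glmQLFit and glmQLFTest, with Benjamini-Hochberg adjustment over the 107 and a threshold of 0.05. The SE is the log2 fold change divided by the square root of the F statistic. Total counts per library were 106954 to 248542, at which counting error gave a coefficient of variation of 0.994% for miR-26a-5p and 12.1% for miR-26b-5p under normoxia. Exact permutation tests and exact binomial intervals (95%) used scipy 1.17.1. The code of the fit was tested on simulated counts with a spread far below that of these libraries, which does not measure its power here. DESeq2 1.42.0 and limma 3.58.1 (also on the authors' normalized table, pseudocount 1 or 10), other scalings and filters, the replicate number as a block and each library left out were alternatives.

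The members and lists were chosen with earlier results of these data known. Named miRNAs follow a fixed rule: the 5 strands, sequences with the same seed, opposite arms, the 3 steadiest ratios for each strand counted in all libraries, and in each bone list the 4 most abundant tested members and the 2 with the smallest p. miR-320-3p was named after its values were seen.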

Additional observations from a re-analysis of the deposited data

How the results depend on the processing

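No setting gave any of the 5 strands an adjusted p under 0.05. No miRNA was called higher in any fit. The count called lower, 0 in edgeR, was 1 when limma was run on the deposited normalized values (pseudocount 1), and 1 at an unadjusted p under 0.05, in both cases an unannotated sequence with no hypoxia counts. miR-22-3p and miR-218a-5p kept their directions in all 17 alternative fits. With each library left out in turn, the log2 fold change ran from -0.56 to 0.14 for miR-26a-5p, from -0.25 to 1.14 for miR-26b-5p and from -0.64 to 0.45 for miR-29a-3p. Reversed values of miR-26b-5p were -1.21 in limma-voom, -1.26 and -0.31 in the authors' table with pseudocounts 1 and 10, and -0.57 with the replicate block. In the same 4 fits miR-29a-3p was at -2.04, -2.40, -1.32 and -1.49, against -0.36 in edgeR. Same-numbered libraries correlated by 0.204, 0.0122 and 0.162 in their deviations from group means, and differently numbered ones by -0.28 to 0.154. With 3 libraries per group, these values cannot show whether the numbers pair the libraries. The fit with the replicate block called 0 sequences. Left-out libraries moved the share difference, in percentage points, from -1.66 to -0.328 for miR-26a-5p, -0.00917 to 0.0280 for miR-26b-5p, -0.00880 to 0.361 for miR-22-3p, -0.0435 to 0.0180 for miR-29a-3p and -0.0362 to 0.00162 for miR-218a-5p. The log2 ratio of miR-26a-5p over miR-218a-5p ran from -0.61 to 0.46. The inhibiting median ran from -0.099 to 0.18, and miR-29a-3p and miR-218a-5p traded places 3 and 4 in the order without hypoxia replicate 1. Causes were not tested. At 25 to 185 counts where listed, counting error alone gave miR-26b-5p a coefficient of variation of 10.7% under hypoxia and 12.1% under normoxia.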
